A study of Homo sapiens with 4 samples.

Results

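The genes of the NF-kB subunits (NFKB1, NFKB2, REL, RELA and RELB), of their inhibitors (NFKBIA, NFKBIB and NFKBIE), of the feedback enzyme TNFAIP3 and of the receptor kinase IRAK1 were examined in 697 cells after degradation of BET proteins. These 10 genes were chosen by symbol from a count table of 28814 genes, and all 10 had enough reads to be among the 16862 genes tested. 697 is an established human cell line of B-cell precursor leukaemia, and its cells were given 1 µM MZ1 for 24 h or an equal volume of DMSO, the solvent. MZ1 is built from the bromodomain ligand JQ1 and a VHL ligand, and it marks BET proteins for degradation, which RNA counts do not measure. There were 2 libraries per group, made from total RNA, and all come from a single cell line in culture. Nothing in the labels says that duplicates came from different cultures, and p-values therefore cover the variation among these 4 libraries, which may be technical. Counted reads numbered 14544789 and 14246367 in the MZ1 libraries, against 16005427 and 16488005 in the DMSO libraries.

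NF-kB is a dimer drawn from a family of related DNA-binding subunits. In resting cells IkB proteins hold the dimers in the cytoplasm until the IKK kinases mark the inhibitor for destruction, and the freed dimer then binds kB sites in the promoters of immune and survival genes, among them the genes of its own inhibitors. NFKB1 and NFKB2 encode precursors that are cut to DNA-binding subunits, while RELA, REL and RELB encode the subunits that carry an activation domain. In B cells the pathway is fed by the B cell receptor, by receptors of the TNF family and by Toll-like receptors, whose signal passes through MYD88 and the IRAK kinases.

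The promoters of the members were read from RefSeq (GRCh38.p14) as the 250 bases before each annotated start, and 8 members had at least 1 such window, 13 windows in all. RELB and NFKBIE had none in the table. The kB consensus was searched on both strands, with overlapping matches counted as 1 stretch. It was found in 7 of the 13 windows, against 5.21% of all 35116 windows in the table. By gene, 6 of the 8 members had a match in any window, against 869 of the 11076 tested genes with a window. None of the backgrounds given here was matched for base content. More than 1 separate stretch was present in 3 of the 13 windows, those of TNFAIP3 and of the middle and downstream starts of NFKB2, against 0.253% of all windows. The matches are shown because they fall in genes that were called higher and in genes that were called lower. Each line gives 30 bases, 5′ to 3′ on the strand of the gene, with the matching stretch in capitals. The capitals of NFKB1 are contained in those of NFKBIB, whose match is intronic at its downstream start, while its other window had no match. Use of each start was not measured, and a link between matches and changes was not tested.
NFKB1 (chr4:102501300-102501329, upstream of the gene in GENCODE): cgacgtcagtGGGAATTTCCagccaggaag
NFKB2, middle start (chr10:102394461-102394490, exonic): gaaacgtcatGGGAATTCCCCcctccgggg
NFKB2, middle start (chr10:102394490-102394519, exonic): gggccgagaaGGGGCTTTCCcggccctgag
NFKB2, downstream start (chr10:102395519-102395548, intronic): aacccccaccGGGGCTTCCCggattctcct
NFKB2, downstream start (chr10:102395674-102395703, exonic): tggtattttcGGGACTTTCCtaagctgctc
REL (chr2:60881517-60881546, exonic): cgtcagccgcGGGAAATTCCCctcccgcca
NFKBIA (chr14:35404811-35404840, minus strand, upstream of the gene): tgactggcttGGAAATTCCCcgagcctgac
NFKBIB, downstream start (chr19:38899931-38899960, intronic): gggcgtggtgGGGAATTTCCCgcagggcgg
TNFAIP3 (chr6:137867188-137867217, exonic): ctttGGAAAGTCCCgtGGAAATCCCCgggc

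IRAK1 and RELA had no match in these windows, which says only that the letters are not there. The IRAK1 window was 82.4% G and C, against a median of 58.0% over all windows. Windows of other members ran from 48.4% to 79.6%, with REL at 79.6%, RELA at 48.4% and 79.2%, and TNFAIP3 at 74.0%. A link between base content and the change of a gene was not tested. Its part outside annotated exons (chrX:154019981-154020152, minus strand, bases 250 to 79 before the start) is shown because IRAK1 changed most, and no base in it is in capitals.
IRAK1: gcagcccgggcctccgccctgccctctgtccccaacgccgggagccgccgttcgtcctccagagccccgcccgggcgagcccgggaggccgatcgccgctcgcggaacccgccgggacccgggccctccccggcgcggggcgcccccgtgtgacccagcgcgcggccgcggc
Of 11076 tested genes with a window, the 869 with a kB match had a median log2 fold change of -0.32, with 35.4% higher and 51.9% lower. The 10207 with no match had a median of -0.16, with 39.3% higher and 47.3% lower. These are descriptions of sequence and level, and binding was not measured.

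The labelled cell type was checked against its markers. All 11 B-cell precursor markers had reads, among them PAX5 with 606 and 615 CPM (read counts scaled to library size with TMM) in MZ1 libraries, against 820 and 837 CPM in DMSO libraries. The summed level of the 11 markers was 1510 and 1548 CPM in MZ1 libraries, against 4477 and 4468 CPM in DMSO libraries. The size of the fall varied by marker. IGLL1 had 7.50 and 7.37 CPM in MZ1 libraries, against 500 and 484 CPM in DMSO libraries. DNTT had 84.3 and 94.4 CPM in MZ1 libraries, against 1244 and 1224 CPM in DMSO libraries. CD24 had 253 and 237 CPM in MZ1 libraries, against 288 and 277 CPM in DMSO libraries. Of the T cell markers, TRAC had 0 and 0 reads in MZ1 libraries, against 114 and 117 reads in DMSO libraries, and CD8A had 58 and 53 reads in MZ1 libraries, against 11 and 8 reads in DMSO libraries. CD3D, CD3E, CD3G and CD2 were not found by symbol among the 28814 genes counted. The 5 myeloid markers measured summed to 21.1 and 17.2 CPM in MZ1 libraries, against 6.35 and 5.49 CPM in DMSO libraries. Within that sum MPO (0 reads in DMSO libraries), CD14 and LYZ were higher in MZ1 libraries, while CSF1R had 0.99 and 0.87 CPM in MZ1 libraries, against 5.62 and 4.66 CPM in DMSO libraries. The erythroid markers summed to 3.68 and 3.11 CPM in MZ1 libraries, against 0.12 and 0.47 CPM in DMSO libraries. The fibroblast or stroma markers COL1A1 and DCN summed to 13.9 and 13.9 CPM in MZ1 libraries, against 12.5 and 10.6 CPM in DMSO libraries. Nearly all of that sum was COL1A1. The part of these marker differences in the results below was not tested. In RNA from whole cultures, fewer cells of a type and less RNA per cell cannot be told apart, and every level is relative to the other RNA of the library, since no spike-in was used here.

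IRAK1 and NFKB1 fell steeply with MZ1, RELB fell, and NFKB2, REL and NFKBIA rose by less than 2-fold. The calls of RELA, NFKBIB and TNFAIP3 rested on differences under 0.25 on the log2 scale. With a threshold of 0.05 on the adjusted p (quasi-likelihood test of edgeR, adjusted by Benjamini-Hochberg across all genes tested) 4 members were higher and 5 lower, and NFKBIE was not called. With upper-quartile scaling, which lifted the median log2 fold change of all tested genes to 0.32 where TMM gave 0.046, 5 were higher and 3 lower. Most of the transcriptome differed between the groups, with 84.4% of tested genes called, 43.0% higher and 41.5% lower, so the share of members called is near that of all genes. The groups did not overlap for 9 of the 10 members, against 91.3% of all tested genes. Called changes of at least 2-fold were seen in 2 of the 10 (20.0%), IRAK1 and NFKB1, against 55.3% of all tested genes. The median log2 fold change (MZ1 over DMSO) was -0.059 over the 10 members and 0.046 over all tested genes.

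**Figure D1:**
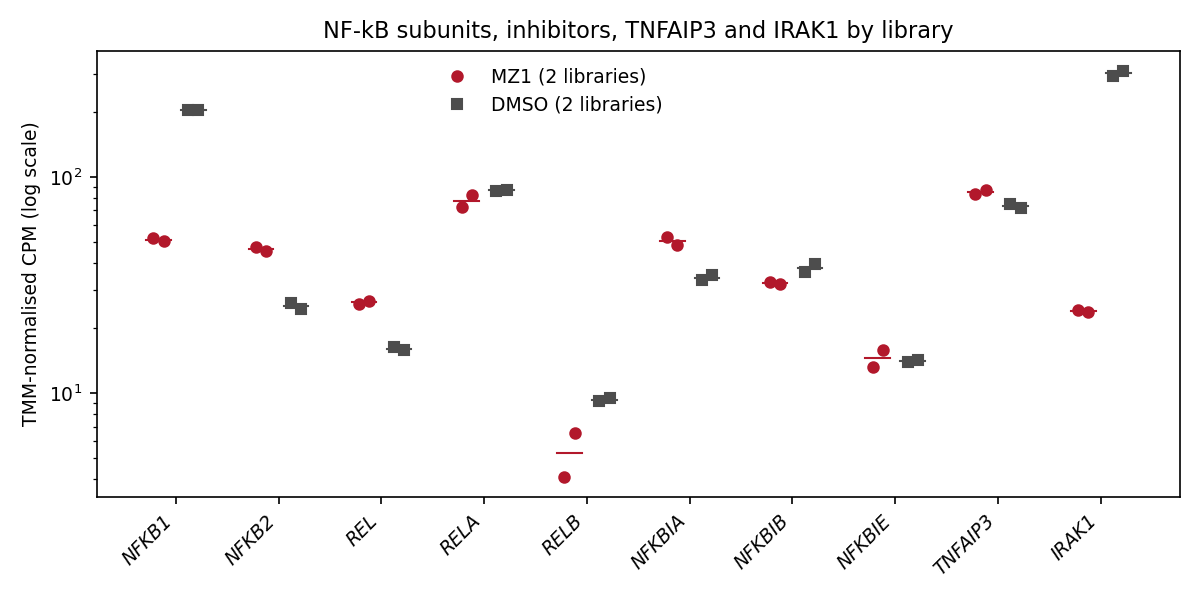
Level of each gene in each library, in TMM-normalised CPM on a log axis, with MZ1 libraries as red circles, DMSO libraries as grey squares and the mean of 2 libraries as a short line. IRAK1 had 24.1 and 23.6 CPM in MZ1 libraries, against 294 and 309 CPM in DMSO libraries, and only NFKBIE shows overlapping groups.

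**Figure D2:**
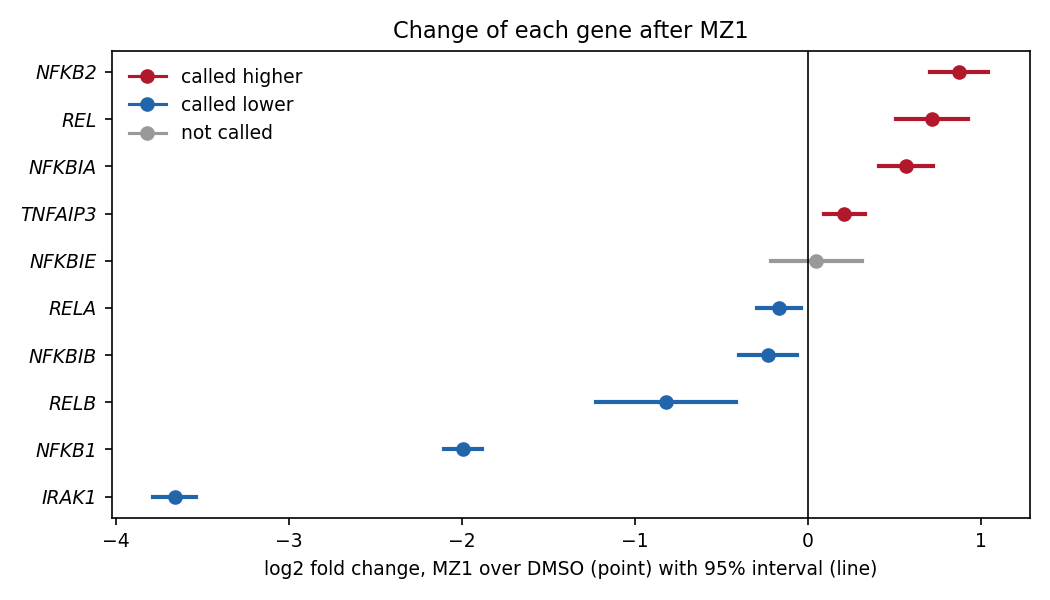
Log2 fold change, MZ1 over DMSO, of each gene (points) with its 95% interval from the edgeR fit (lines), coloured red where called higher, blue where called lower and grey where not called. IRAK1 lies at -3.66 and NFKB1 at -1.99, while the remaining members lie between -0.82 and 0.87.

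IRAK1 encodes the kinase that is recruited behind MYD88 when a Toll-like or IL-1 receptor is engaged. The gene (ENSG00000184216, chromosome X, 154010500 to 154019980, minus strand, GRCh38) had 24.1 and 23.6 CPM in MZ1 libraries, against 294 and 309 CPM in DMSO libraries. Both MZ1 libraries were far below both DMSO libraries, and the duplicates lay close together. It was 12.6-fold lower with MZ1 (log2 fold change -3.66 ± 0.06, SE; edgeR adjusted p = 9.22e-25), and 3.20% of tested genes had a more negative change. The microRNA gene MIR718 takes up 61 bases of its exons, and no other gene of the annotation overlaps them.

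The IRAK kinases were set side by side per length, since reads per gene grow with transcript length. IRAK4, which activates IRAK1 in the receptor complex, went the other way, with 75.6 and 74.8 CPM in MZ1 libraries against 34.3 and 36.5 CPM in DMSO libraries. Its rise was 2.12-fold (log2 fold change 1.09 ± 0.07, SE; edgeR adjusted p = 2.11e-13). IRAK2 rose 4.63-fold, to 4.61 ± 0.28 CPM in MZ1 libraries, against 0.99 ± 0.02 CPM in DMSO libraries. IRAK3, which in macrophages restrains this pathway, rose 4.77-fold, to 4.90 ± 0.33 CPM in MZ1 libraries, against 1.02 ± 0.28 CPM in DMSO libraries. Per kilobase of exon IRAK1 stood at 5.97 ± 0.09 CPM in MZ1 libraries and at 75.4 ± 2.6 CPM in DMSO libraries (SD, n = 2 each). IRAK4 stood at 13.4 ± 0.1 CPM per kilobase in MZ1 libraries and at 6.29 ± 0.28 CPM per kilobase in DMSO libraries. IRAK1 thus made up 28.2 ± 0.1% of the summed IRAK level in MZ1 libraries and 91.9 ± 0.02% in DMSO libraries. The sum over the 4 kinases was 21.1 ± 0.2 CPM per kilobase in MZ1 libraries and 82.1 ± 2.9 CPM per kilobase in DMSO libraries.

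Among the subunits NFKB1, the gene of the p105 precursor and its p50 product, changed most. It is located on chromosome 4 (102501329 to 102617302, plus strand, GRCh38; ENSG00000109320) and had 52.1 and 50.6 CPM in MZ1 libraries, against 205 and 204 CPM in DMSO libraries. The groups were well apart and the duplicates close together. The log2 fold change was -1.99 ± 0.05 (SE; edgeR adjusted p = 1.27e-20), a 3.99-fold fall. Of all tested genes, 12.3% had a more negative change.

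NFKB2, the gene of the p100 precursor and its p52 product, is the closest relative of NFKB1 and moved in the opposite direction. The gene (chromosome 10, 102394110 to 102402529, plus strand; ENSG00000077150) had 47.5 and 45.2 CPM in MZ1 libraries, against 26.2 and 24.4 CPM in DMSO libraries. Each MZ1 library exceeded each DMSO library, and the log2 fold change was 0.87 ± 0.08 (SE; edgeR adjusted p = 4.51e-10). NFKB2 is best known from the alternative arm of the pathway, in which p100 is processed and p52 pairs with RELB. RELB itself (chromosome 19, 45001430 to 45038198, plus strand; ENSG00000104856) was scarce, with 4.10 and 6.50 CPM in MZ1 libraries, against 9.16 and 9.50 CPM in DMSO libraries. It was called lower, by -0.82 ± 0.20 (SE; edgeR adjusted p = 5.04e-04). The MZ1 duplicates were far apart, and the log2 fold change of RELB was -0.51 without MZ1 replicate 1 and -1.18 without MZ1 replicate 2.

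REL, which encodes c-Rel, the subunit typical of lymphoid cells, had 25.8 and 26.8 CPM in MZ1 libraries, against 16.3 and 15.8 CPM in DMSO libraries (chromosome 2, 60881521 to 60931610, plus strand; ENSG00000162924). The groups were apart and the log2 fold change was 0.71 ± 0.10 (SE; edgeR adjusted p = 6.40e-07). Its count is uncertain, because 43.3% of its exonic length is shared with the same-strand gene AC010733.2. That gene was not found by symbol among the genes counted. RELA, the gene of the p65 subunit, was the subunit with the smallest difference (chromosome 11, 65653596 to 65663094, minus strand; ENSG00000173039). It had 72.9 and 82.1 CPM in MZ1 libraries, against 86.5 and 87.4 CPM in DMSO libraries. RELA was called lower by -0.17 ± 0.06 (SE; edgeR adjusted p = 0.0154), but the value turned to 0.11 with upper-quartile scaling. The RELA call was lost without MZ1 replicate 1 (-0.076), with DESeq2 and with the stricter count filter (edgeR, limma and DESeq2 adjusted p = 7.33e-04 to 0.309 over the alternatives).

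Levels of different subunits were compared per kilobase of exon. NFKB1 stood highest in DMSO libraries at 32.7 ± 0.1 CPM per kilobase, ahead of RELA at 15.9 ± 0.1, NFKB2 at 5.65 ± 0.28, RELB at 3.07 ± 0.08 and REL at 1.22 ± 0.03 (SD, n = 2). In MZ1 libraries RELA came first at 14.2 ± 1.2 CPM per kilobase, ahead of NFKB2 at 10.3 ± 0.3, NFKB1 at 8.20 ± 0.17, REL at 1.998 ± 0.054 and RELB at 1.75 ± 0.56. REL and RELB in MZ1 libraries did not differ beyond their spread, with RELB at 1.35 and 2.14 CPM per kilobase around REL at 1.96 and 2.04. NFKB1 made up 22.5 ± 1.2% of the summed subunit level in MZ1 libraries and 55.9 ± 0.05% in DMSO libraries. NFKB2 made up 28.4 ± 2.0% in MZ1 libraries and 9.64 ± 0.45% in DMSO libraries. The ratio of NFKB1 to NFKB2 was 0.79 ± 0.01 in MZ1 libraries and 5.80 ± 0.27 in DMSO libraries. Summed over the 5 subunits the level was 36.5 ± 1.3 CPM per kilobase in MZ1 libraries and 58.6 ± 0.2 CPM per kilobase in DMSO libraries. Exonic length was the union over all annotated transcripts, so these levels depend on that length, which cancels in the change of each gene. The counts behind both rest on the annotation used for counting, which is not given in the sources used here.

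**Figure D3:**
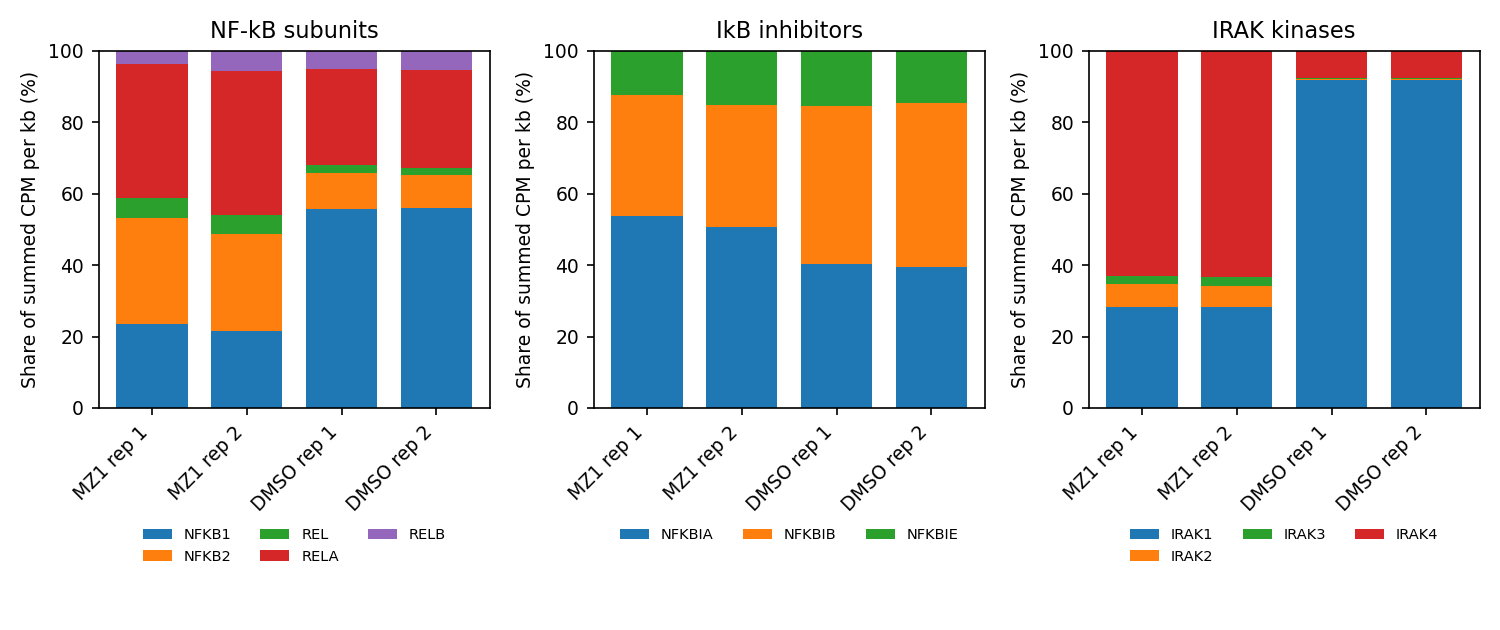
Share of each gene in the summed CPM per kilobase of its family, in percent, for each of the 4 libraries, with NF-kB subunits on the left, IkB inhibitors in the middle and IRAK kinases on the right. NFKB1 falls to 22.5% of the subunits in MZ1 libraries, against 55.9% in DMSO libraries, and IRAK1 to 28.2% of the IRAK kinases, against 91.9%.

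The inhibitors did not move as a group. NFKBIA, which encodes IkB-alpha, the inhibitor that NF-kB itself induces most quickly, had 52.8 and 48.5 CPM in MZ1 libraries, against 33.4 and 35.1 CPM in DMSO libraries (chromosome 14, 35401511 to 35404749, minus strand; ENSG00000100906). The groups were apart, and the log2 fold change was 0.57 ± 0.08 (SE; edgeR adjusted p = 2.54e-07), a 1.48-fold rise. NFKBIB, the gene of IkB-beta, had 32.7 and 32.0 CPM in MZ1 libraries, against 36.2 and 39.6 CPM in DMSO libraries (chromosome 19, 38899700 to 38908893, plus strand; ENSG00000104825). It was called lower by -0.23 ± 0.08 (SE; edgeR adjusted p = 0.0118), a value that turned to 0.042 with upper-quartile scaling. That call was lost with DESeq2, with the stricter count filter, without MZ1 replicate 2 and without DMSO replicate 2 (adjusted p = 0.00126 to 0.629 over the alternatives). NFKBIE, the gene of IkB-epsilon, had 13.2 and 15.8 CPM in MZ1 libraries, against 13.9 and 14.2 CPM in DMSO libraries (chromosome 6, 44258166 to 44265788, minus strand; ENSG00000146232). Its groups overlapped and it was not called (log2 fold change 0.048, 95% interval -0.22 to 0.31; edgeR adjusted p = 0.733), although upper-quartile scaling gave a call of 0.32.

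Per kilobase the inhibitors summed to 40.9 ± 0.8 CPM in MZ1 libraries and 36.2 ± 1.7 CPM in DMSO libraries (SD, n = 2 each). Set against the summed subunits, that was a ratio of 1.12 ± 0.06 in MZ1 libraries and 0.62 ± 0.03 in DMSO libraries. This ratio depends on the length used. It was not computed with the longest coding transcript, so it does not settle which sum is larger with MZ1. NFKBIA supplied 52.2 ± 2.2% of the inhibitor sum in MZ1 libraries and 39.9 ± 0.4% in DMSO libraries. NFKBIB supplied 34.0 ± 0.2% in MZ1 libraries and 45.1 ± 0.8% in DMSO libraries.

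TNFAIP3 encodes A20, a ubiquitin-editing enzyme that shuts the pathway down and is itself a known NF-kB target. The gene (chromosome 6, 137867188 to 137883312, plus strand; ENSG00000118503) had 83.4 and 87.0 CPM in MZ1 libraries, against 75.3 and 72.0 CPM in DMSO libraries. The MZ1 libraries were both higher, by 1.16-fold, and the gene was called (log2 fold change 0.21 ± 0.06, SE; edgeR adjusted p = 0.00198). The call was lost without DMSO replicate 2 (0.14) and with no count filter (0.13), with adjusted p = 1.02e-07 to 0.0806 over the alternatives.

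Over all members, levels per kilobase of exon union ran in another order in each group. In MZ1 libraries NFKBIA (21.4 ± 1.3 CPM per kilobase) and TNFAIP3 (16.5 and 17.2) led, followed by RELA and NFKBIB (13.9 ± 0.2), whose ranges overlapped, then NFKB2, NFKB1, IRAK1 and NFKBIE (5.63 ± 0.71), the last pair overlapping too. In DMSO libraries IRAK1 and NFKB1 led, followed by NFKBIB (16.3 ± 1.1) and RELA, which overlapped, and by TNFAIP3 (14.9 and 14.3) and NFKBIA (14.4 ± 0.5), which did as well. NFKB2 and NFKBIE (5.44 ± 0.10) came next in DMSO libraries with overlapping levels, ahead of RELB and REL. These orders depend on the length used. Per kilobase of the longest coding transcript, RELA (22.9 and 25.8 CPM) lay above TNFAIP3 (17.6 and 18.4) and NFKBIB (16.9 and 16.6) in MZ1 libraries. In DMSO libraries RELA (27.2 and 27.5) and NFKBIA (21.4 and 22.5) then both lay above NFKBIB (18.7 and 20.6) and TNFAIP3 (15.9 and 15.2), and NFKB2 (7.67 and 7.15) above NFKBIE (5.37 and 5.51).

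Neighbouring genes were picked by position only. Beside NFKB1, SLC39A8 fell (log2 fold change -2.10 ± 0.07, SE) and MANBA rose (1.33 ± 0.07). On the side of IRAK1 past its 3′ end, TMEM187 rose (1.26 ± 0.15). NFKBIB overlaps the start of SIRT2, on the opposite strand, by 1.72% of its exonic length, and SIRT2 rose while NFKBIB did not (SIRT2 147 ± 3 CPM in MZ1 libraries, 46.0 ± 2.7 CPM in DMSO libraries). Next to NFKB2, both GBF1 (1.60 ± 0.05) and PSD (2.40 ± 0.23) were higher with MZ1, and next to RELA both SIPA1 (-1.10 ± 0.07) and KAT5 (-1.30 ± 0.13) were lower, all called by edgeR.

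The rest of the pathway was read from 10 lists with 143 genes, of which 104 had enough reads to be tested. Of the 104, 47 were higher and 48 lower (45.2% and 46.2%), close to the 43.0% and 41.5% of all tested genes, and their median log2 fold change was -0.092, against 0.046 over all tested genes. The lists differed from each other in their splits, which are given as counts with no test of a list. Each split is to be read beside the 43.0% higher and 41.5% lower of all tested genes. In the lists, 3 genes (TLR3, TNFRSF13B and CCL5) had no reads in a group, and every list median is the same with them at the bound that 3 counts give.

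**Figure D4:**
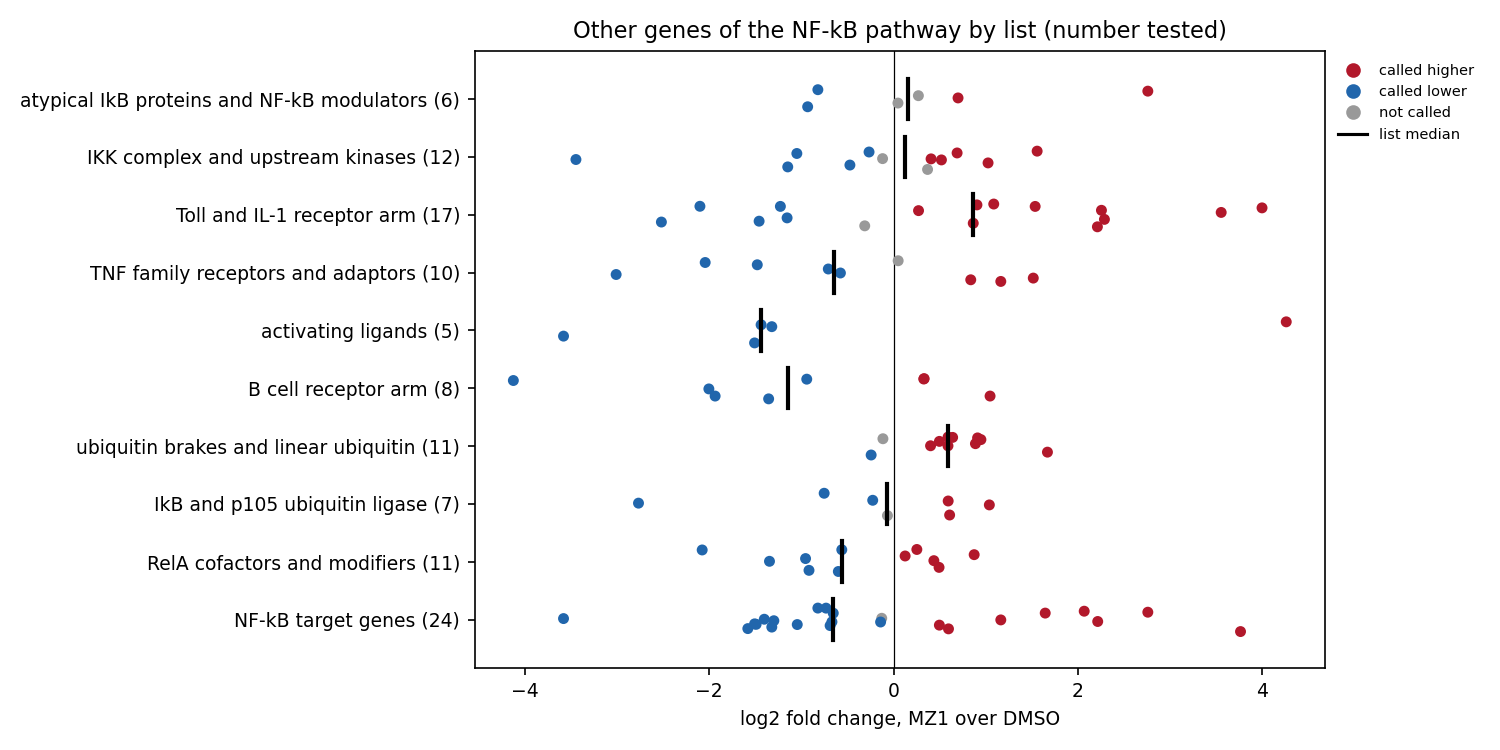
Log2 fold change, MZ1 over DMSO, of the other pathway genes by list, each point a gene coloured by its edgeR call (red higher, blue lower, grey not called), with the list median as a black bar and the number tested in brackets. The 11 tested ubiquitin brakes and linear ubiquitin genes have a median of 0.59, while the 5 activating ligands have a median of -1.44, and 3 genes at 0 reads in a group are left out of the points.

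In the Toll and IL-1 receptor arm, 10 of 17 tested genes were higher and 6 lower (median log2 fold change 0.86). These were 58.8% and 35.3%, against 43.0% and 41.5% of all tested genes. TIRAP, the adaptor that brings MYD88 to the membrane, rose 15.9-fold, to 21.7 ± 1.4 CPM in MZ1 libraries, against 1.35 ± 0.18 CPM in DMSO libraries. TOLLIP, a negative regulator of the receptor complex, rose 2.90-fold. MYD88, the adaptor that carries IRAK4 and IRAK1, fell 2.34-fold, to 21.5 ± 0.7 CPM in MZ1 libraries, against 50.4 ± 0.04 CPM in DMSO libraries. SIGIRR, a receptor that dampens signalling, fell 2.75-fold, and UBE2N, the ubiquitin-conjugating enzyme that works with TRAF6, fell 2.23-fold, although NUDT4 overlaps 39.5% of its exons. TIRAP has 22.5% of its exonic length in antisense genes. Among the receptors, TLR3 was called lower, with 0 reads in each MZ1 library, against 55 and 54 reads in DMSO libraries. TLR1 and TLR10 were called lower, on 19 and 10 reads in MZ1 libraries, against 131 and 52 in DMSO libraries. TLR6 was not called (log2 fold change -0.31), and IL1R1 was called higher on 32 reads in MZ1 libraries, against 3 in DMSO libraries. TLR2, TLR5, TLR7 and TLR9 had too few reads for the test.

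The IKK complex and upstream kinases split evenly, with 5 of 12 higher and 5 lower (median 0.12). TAB3, a ubiquitin-binding partner of the kinase TAK1, rose 2.94-fold and its relative TAB2 1.43-fold, whereas the TAK1 activator gene TAB1 fell 2.07-fold. MAP3K14, the NIK kinase that starts p100 processing, rose 2.03-fold, to 37.4 ± 2.3 CPM in MZ1 libraries, against 18.4 ± 0.8 CPM in DMSO libraries. The catalytic subunit gene IKBKB fell 1.39-fold and the related IKBKE 10.9-fold, to 1.68 ± 0.08 CPM in MZ1 libraries, against 18.4 ± 1.8 CPM in DMSO libraries.

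Of the TNF family receptors and adaptors, 3 of 10 were higher and 6 lower (median -0.64). TRAF3 and BIRC2, which together keep NIK low in resting cells, went apart: TRAF3 fell 4.12-fold and BIRC2 rose 2.86-fold. TRAF5 fell 8.06-fold and the receptor gene TNFRSF1A 2.79-fold, while the adaptor genes RIPK1 and TRAF1 rose 1.79-fold and 2.24-fold. The activating ligands were scarce, with 1 of 5 tested genes higher and 4 lower (median -1.44). TNFSF13B, the gene of BAFF, rose to 7.61 ± 0.44 CPM in MZ1 libraries, against 0.39 ± 0.31 CPM (13 reads) in DMSO libraries. TNF fell 2.50-fold, to 2.29 ± 0.27 CPM in MZ1 libraries, against 5.72 ± 1.35 CPM in DMSO libraries. LTA, lower as well, was at 0.29 ± 0.21 CPM (8 reads) in MZ1 libraries and 3.51 ± 0.38 CPM in DMSO libraries, and its log2 fold change was -2.99 without MZ1 replicate 1 and -4.56 without MZ1 replicate 2. That of TNFSF13B was 5.32 without DMSO replicate 1 and 3.58 without DMSO replicate 2. LTB and TNFSF13 were called lower on 9 and 20 reads in MZ1 libraries, against 31 and 65 in DMSO libraries. The LTB call was lost with DESeq2, without MZ1 replicate 1 and without DMSO replicate 2, and that of TNFSF13, which shares 55.5% of its exonic length with a read-through gene, with DESeq2, with no count filter and without MZ1 replicate 2.

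The B cell receptor arm had 3 of 8 tested genes higher and 5 lower (median -1.15). BLNK, the scaffold behind the receptor, fell 17.4-fold, to 7.13 ± 1.88 CPM in MZ1 libraries, against 124 ± 5 CPM in DMSO libraries. The kinase gene SYK fell 4.01-fold and the receptor chain gene CD79A 2.56-fold, while BCL10, PLCG2 and MALT1 rose 2.06-fold, 1.26-fold and 1.25-fold.

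Genes of ubiquitin brakes and linear ubiquitin were higher in 9 of 11 cases and lower in 1 (median 0.59). The higher share was 81.8%, against 43.0% of all tested genes. Called changes of at least 2-fold were seen in 1 of the 11 (9.09%), against 55.3% of all tested genes. OTUD7B, a deubiquitinase related to A20, rose 3.18-fold, the A20 partner TAX1BP1 1.88-fold and the ubiquitin ligase ITCH 1.85-fold. SHARPIN, a subunit of the linear ubiquitin ligase, was called lower by -0.24 ± 0.08 (SE; edgeR adjusted p = 0.00711), a value that turned to 0.027 with upper-quartile scaling. Its call was also lost with DESeq2 and without MZ1 replicate 2. The ubiquitin ligase that marks IkB and p105 had 3 of 7 members higher and 3 lower, or 4 and 2 with upper-quartile scaling. RBX1, its RING subunit, fell 6.81-fold and the scaffold gene CUL1 1.69-fold. SKP1 rose 1.52-fold, the IkB-binding F-box gene BTRC 1.51-fold and RNF123, a ligase for p105, 2.05-fold. FBXW11, the relative of BTRC, was not called, at 65.8 ± 3.8 CPM in MZ1 libraries and 68.9 ± 4.5 CPM in DMSO libraries, and the conjugating enzyme gene UBE2D3 was called lower by -0.23 ± 0.04 (SE, edgeR). With upper-quartile scaling FBXW11 was called higher (0.20) and UBE2D3 turned to 0.044. FBXW11 was called lower with library totals alone and without DMSO replicate 2 (-0.17).

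Among atypical IkB proteins and NF-kB modulators 2 of 6 were higher, 2 lower and 2 not called. NFKBIZ, the gene of the nuclear IkB-zeta, rose 6.76-fold, to 19.2 and 19.8 CPM in MZ1 libraries, against 2.87 and 2.89 CPM in DMSO libraries. NKIRAS2, an inhibitor of IkB-beta degradation, rose 1.62-fold, the repressor gene NKRF fell 1.91-fold and BCL3, a nuclear partner of p50 and p52, fell 1.77-fold. The BCL3 call was lost with no count filter, without MZ1 replicate 2 and without DMSO replicate 2. NFKBID and NKIRAS1 were at 6.33 ± 0.05 and 6.54 ± 0.05 CPM in MZ1 libraries and at 5.26 ± 0.60 and 6.34 ± 0.88 CPM in DMSO libraries. Among RelA cofactors and modifiers 5 of 11 were higher and 6 lower (median -0.56). SIRT1, a deacetylase of RelA, rose 1.83-fold, HDAC1 1.41-fold and EP300 1.35-fold. COMMD1, which promotes the destruction of RelA, fell 4.22-fold, although other genes overlap 38.5% of its exons. The methyltransferase gene SETD7 fell 1.94-fold and the deacetylase gene HDAC2 1.89-fold.

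NF-kB target genes split as well, with 9 of 24 tested genes higher and 14 lower (median -0.66). These were 37.5% and 58.3%, against 43.0% and 41.5% of all tested genes. With upper-quartile scaling 10 target genes were higher and 11 lower (median -0.39). Of the 45 listed, 10 had too few reads for the test. Another 11, among them CXCL8, IL6 and BCL2A1, were not found by symbol among the genes counted. IRF4 and JUNB, both transcription factors, rose 13.6-fold and 3.12-fold, and NFKBIZ stands in this list too. CD83, a surface protein of activated B cells, fell 2.99-fold, to 16.8 ± 0.2 CPM in MZ1 libraries, against 50.3 ± 1.2 CPM in DMSO libraries. BCL2L1, the gene of the survival protein BCL-XL, was 2.65-fold lower, and the antisense gene ABALON covers 43.0% of its exons. TNFAIP8 fell 1.57-fold.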

How the data were processed

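RNA-seq of 4 libraries from 697 cells (2 MZ1, 2 DMSO) was used. The authors deposited whole-number read counts by Ensembl gene, per the file headers and values. Per the submitters' processing notes, HISAT2 2.2.0 and the genome build hg38 were used. Which program counted reads, on which annotation and strand, is not given in the sources used here, and reads of overlapping genes cannot be told apart. Samples were grouped by title. Positions and exon lengths came from GENCODE 29 (GRCh38), in which all 28814 IDs were found, and symbols came from a gene name table for 28597 of them.

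In R 4.3.3, edgeR 4.0.16 was run with filterByExpr, TMM and a quasi-likelihood fit (legacy = FALSE) with treatment as the only term. Standard errors were derived from F and the coefficient without shrinkage. CPM values were computed from counts and the TMM library sizes. Adjusted p-values cover all 16862 genes tested. Intervals of fold changes cover the spread that edgeR pools over genes. For 1 gene alone, an exact permutation test of these groups has a smallest two-sided p of 0.333. The script was run on simulated data in which most genes did not change, unlike here, so that run could not test the scaling. Replicates differed by more than sampling noise (chi-square per degree of freedom 2.19 for MZ1 and 2.43 for DMSO), so each library counts once. Alternatives used DESeq2 1.42.0, limma-voom 3.58.1, other scalings and filters, a replicate block and each library left out.

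Members and lists were chosen with earlier results of these data known. Genes named from the lists were all tested genes of a list of up to 9, or up to 3 in each direction by adjusted p. IRAK2, IRAK3, TLR1, TLR3, TLR6, TLR10, IL1R1, neighbouring genes and genes named as not tested were added after their values were seen. Labels name no batch.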

Additional observations from a re-analysis of the deposited data

How the results depend on the processing

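IRAK1, NFKB1, NFKB2, REL, NFKBIA and RELB kept their direction and their call under all 14 alternatives, IRAK1 at -3.74 to -3.39 on the log2 scale and NFKB1 at -2.07 to -1.72. The count of members called lower was 3 with upper-quartile scaling, 3 with the stricter count filter and 3 with DESeq2, and 4 to 5 when 1 library was left out, in place of 5. With upper-quartile scaling RELA turned to 0.11, NFKBIB to 0.042, FBXW11 to 0.20, SHARPIN to 0.027 and UBE2D3 to 0.044, and NFKBIE was called at 0.32. NFKBIE and NKIRAS1 turned to -0.029 and -0.030 with library totals alone and to -0.029 and -0.030 with no count filter. With no count filter TNFAIP3 was not called (0.13). The calls of RELA and NFKBIB were lost with the stricter count filter (-0.102 and -0.17) and with DESeq2 (-0.14 and -0.20). When 1 library was left out, RELA ranged from -0.25 to -0.076, NFKBIB from -0.34 to -0.20, NFKBIE from -0.087 to 0.18 and TNFAIP3 from 0.14 to 0.25, and NKIRAS1 from -0.13 to 0.15. The cause of these changes was not tested. Among the other 57 genes named from the lists by the naming rule, 49 kept direction and call under every alternative run.

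With the length of the longest coding transcript, an alternative added after the data were seen, the order of members by level changed and shares of the subunit sum moved as follows. NFKB2 was 24.6% with MZ1 and 8.21% with DMSO, REL 4.24% and 1.58%, and RELA 44.1% and 30.2%. NFKB1 was 55.5% and RELB 4.50% with DMSO. Of the inhibitor sum NFKBIA was 59.2% with MZ1 and 46.7% with DMSO, NFKBIB 30.5% and 41.7%, and NFKBIE 10.3% and 11.6%. Of the IRAK sum IRAK1 was 25.1% with MZ1 and 90.5% with DMSO, IRAK2 5.09% and 0.313%, and IRAK4 67.7% and 9.10%.

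With the replicate number as a block 7169 of all genes were called higher and 6915 lower, in place of 7246 and 6992, and 4 members were higher and 5 lower, as without it. No label ties equal numbers to a shared culture, and deviations of equally numbered libraries correlated at 0.014 over genes. Depth limits RELB (58 and 90 reads in MZ1 libraries), the ligands, IKBKE (47 reads over the MZ1 libraries), and IRAK2, IRAK3 and TIRAP (33, 34 and 45 reads over the DMSO libraries).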
